A study of Homo sapiens with 8 samples.

Results

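The miR-203 locus encodes a pair of microRNA (miRNA) hairpins, MIR203A and MIR203B, that lie on opposite strands of the same stretch of chromosome 14. The 3 names described here, hsa-miR-203a-3p, hsa-miR-203b-5p and hsa-miR-203b-3p, were taken by name from 1818 mature miRNA names listed in any of 8 libraries, and all 3 passed the filter on low counts that left 625 names for testing. hsa-miR-203a-5p, the remaining strand of the locus, is not one of the 3 and is given beside them because the strand ratio of MIR203A needs it. The names were chosen by their measured counts in the mutant and WT libraries compared below, so their levels and fold changes are a description and carry no p-value.

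The libraries came from HCT116, a human colorectal carcinoma line, in which DICER was supplied as a rescue construct carrying R1855L, R821H or R1003Q or as wild type (WT), with 2 libraries per group. What the host cells kept of their own DICER, how the construct was driven, whether a line was 1 clone and whether replicates were separate cultures are not stated in the sources used here, so the spread between replicates, which any p-value here measures, may be technical. Small RNAs were sequenced by AQ-seq, a method that reduces ligation bias. Library totals ranged from 462805 to 4269231 reads. R1855L replicate 1, R821H replicate 1 and WT replicate 2 were deep (at least 2241881 reads) and the other 5 shallow (at most 1143373). All comparisons with WT share the same WT libraries.

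DICER cuts a precursor hairpin near its loop into a duplex with a 5p and a 3p strand. That cut sets the 5′ end of the 3p strand and thereby its seed, the bases that pair with target mRNAs, and 1 strand of the duplex is then usually retained by Argonaute. Residue R1855 lies in the C-terminal double-stranded RNA-binding domain of DICER, R821 in its platform domain and R1003 in its PAZ domain. miR-203a-3p is known for skin, where it restricts the stem-like state of keratinocytes by repressing the transcription factor p63, and in carcinoma cells its gene is a target of the repressor ZEB1.

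The sequences show how closely the strands of the locus are related. The mature strands are given 5′ to 3′ from RefSeq (GRCh38.p14), with the seed, bases 2 to 8, in capitals.
hsa-miR-203a-5p: aGUGGUUCuuaacaguucaacaguu
hsa-miR-203a-3p: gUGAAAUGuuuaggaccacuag
hsa-miR-203b-5p: uAGUGGUCcuaaacauuucaca
hsa-miR-203b-3p: uUGAACUGuuaagaaccacugga
Each strand has a seed of its own. In the RefSeq table the seed of miR-203b-5p occurs in 1 other human miRNA, hsa-miR-6718-5p, which had 1 read in R1855L replicate 1 and none in the other 7 libraries, and the other seeds occur in no other human name. In GRCh38, MIR203A spans chr14:104117405-104117514 on the plus strand and MIR203B spans chr14:104117418-104117503 on the minus strand. GENCODE release 29 places no other gene over them, and the nearest gene, ASPG, ends 1824 bases upstream.

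The stretches from the start of the 5p to the end of the 3p strand, with the mature strands in capitals and the bases between them in lower case, show the arms that DICER separates.
MIR203A: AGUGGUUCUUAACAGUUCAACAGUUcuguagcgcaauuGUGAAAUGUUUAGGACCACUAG
MIR203B: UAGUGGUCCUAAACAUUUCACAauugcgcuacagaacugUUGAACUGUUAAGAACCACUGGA
The annotated strands are 13 bases apart in MIR203A and 17 bases apart in MIR203B. Because the hairpins are antisense to each other, 21 of the 22 bases of miR-203b-5p are the exact complement of miR-203a-3p, and 20 of the 23 bases of miR-203b-3p are the exact complement of miR-203a-5p. Strands on the same arm also resemble each other: miR-203b-3p and miR-203a-3p share 17 of 22 aligned bases, and miR-203b-5p and miR-203a-5p share 16 of 21.

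**Figure D1:**
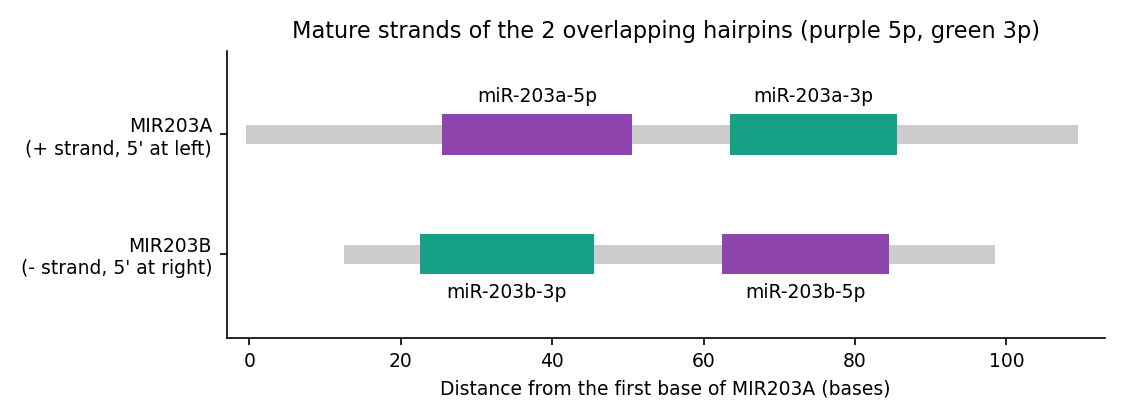
Position of the mature strands within MIR203A (plus strand, upper) and MIR203B (minus strand, lower), in bases from the first base of MIR203A, with 5p strands in purple, 3p strands in green and the annotated hairpins in grey. The 3p strand of each hairpin lies opposite the 5p strand of the other: miR-203a-3p covers 64 to 85 bases and miR-203b-5p 63 to 84.

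Since the hairpins are antisense, their names can be told apart only if strand was used in counting, which the sources used here do not state. All 24 values of the 3 names were whole numbers. Whole values alone do not exclude reads split with another name, and they do not show whether strand was used. Over the 8 libraries MIR203A had 15572 reads and MIR203B 1539. For another pair of opposite hairpins in the RefSeq table, MIR423 and MIR3184, the totals were 29585 and 1 reads, so reads of an abundant hairpin were not also listed under its antisense name there.

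The 3p strands of both hairpins were lower in R1855L than in WT, while the 5p strands overlapped between those groups. Levels are CPM, read counts divided by a library total that TMM scaling had adjusted for composition. miR-203a-3p, the main product of the locus, had 359 and 393 CPM in R1855L (replicates 1 and 2), 1096 and 1255 CPM in R821H, 982 and 1156 CPM in R1003Q, and 1164 and 1119 CPM in WT. Both R1855L libraries lay below all 6 others, and the R821H and R1003Q libraries overlapped WT. The means were 376 ± 24.2 CPM in R1855L (SD, n = 2), 1176 ± 112 in R821H, 1069 ± 123 in R1003Q and 1142 ± 32.0 in WT. Neighbours in that order other than R1855L did not differ beyond their spread.

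miR-203b-3p, whose bases largely match miR-203a-3p but whose seed differs, had 25.5 and 20.2 CPM in R1855L, 83.1 and 83.3 CPM in R821H, 82.1 and 96.5 CPM in R1003Q, and 108 and 114 CPM in WT. The R1855L libraries were again lowest without overlap. The means were 22.9 ± 3.76 CPM in R1855L, 83.2 ± 0.108 in R821H, 89.3 ± 10.2 in R1003Q and 111 ± 4.12 in WT (SD, n = 2 each). R821H and R1003Q overlapped each other, and all 4 of their libraries lay below both WT libraries. These values rest on 52 and 11 reads in R1855L, 244 and 70 in R821H, 92 and 68 in R1003Q, and 143 and 440 in WT.

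miR-203b-5p, antisense to miR-203a-3p, had 44.7 and 27.6 CPM in R1855L, 33.4 and 15.5 CPM in R821H, 20.5 and 15.6 CPM in R1003Q, and 15.9 and 38.2 CPM in WT. The R1855L and WT libraries overlapped, and the R1855L libraries lay above both R1003Q libraries, as occurred for 20.6% of all names. Its read counts were 91 and 15 in R1855L, 98 and 13 in R821H, 23 and 11 in R1003Q, and 21 and 147 in WT. miR-203a-5p had 301 and 97.4 CPM in R1855L, 220 and 117 CPM in R821H, 130 and 122 CPM in R1003Q, and 103 and 212 CPM in WT, and here every group overlapped every other.

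**Figure D2:**
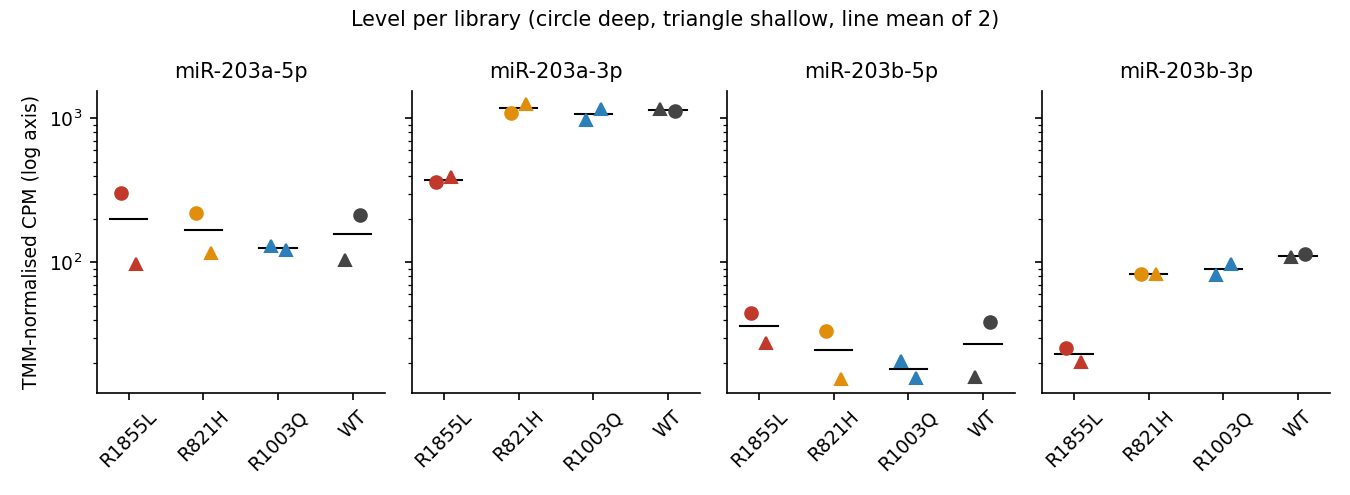
TMM-normalised CPM on a log axis for the 4 strands of the locus in R1855L, R821H, R1003Q and WT; each point is a library (circle deep, triangle shallow) and each line the mean of 2. The 3p strands in R1855L sit at 359 and 393 CPM (miR-203a-3p) and at 25.5 and 20.2 CPM (miR-203b-3p), below every other library, and the 5p circles lie above the 5p triangles in R1855L, R821H and WT.

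In the fit across all names, the log2 fold change of R1855L over WT was -2.25 (SE 0.27) for miR-203b-3p and -1.60 (SE 0.22) for miR-203a-3p. It was 0.42 (SE 0.53) for miR-203b-5p and 0.35 (SE 0.58) for miR-203a-5p. edgeR called 2 of the 3 names lower at an adjusted p under 0.05, against 5.44% of the 625 names tested, and called none of the 3 higher, against 0.32%. Libraries of R1855L lay below WT without overlap for the same 2 names, and for 21.4% of all names. Since the names were chosen with this contrast known, nothing is read from these counts. Of all tested names ending in 3p, 21 of 243 were called lower, with a median log2 fold change of -0.06. Of those ending in 5p, 8 of 268 were called lower, with a median of 0.22. The median log2 fold change over all names was 0.13 in this comparison, 17 names had a lower value than miR-203b-3p and 40 a lower one than miR-203a-3p. The call of both was lost in a fit to only the 4 libraries compared (-2.26, SE 0.37, and -1.60, SE 0.31), and that of miR-203a-3p was lost without R1855L replicate 1 (-1.54, SE 0.27).

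Within depth classes the 3p differences had a similar size. Taking only the deep library of each group, R1855L over WT came to -1.64 for miR-203a-3p and -2.16 for miR-203b-3p on the log2 scale. Taking only the shallow ones, it came to -1.57 and -2.42. With depth class beside group in the model, miR-203a-3p differed between deep and shallow libraries by -0.13 (SE 0.15) and miR-203b-3p by 0.09 (SE 0.21) on the log2 scale. By contrast, the 5p strands were higher in deep libraries, miR-203a-5p by 1.17 (SE 0.18) and miR-203b-5p by 1.04 (SE 0.26). Their R1855L to WT ratios were 0.50 (deep) and -0.08 (shallow) for miR-203a-5p, and 0.23 and 0.79 for miR-203b-5p. The part of depth in the 5p levels beyond these values was not tested.

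The sum of both strands was lower in R1855L as well. The MIR203A strands together had 599 and 577 CPM, here without TMM scaling, in R1855L, 1157 and 1370 in R821H, 1090 and 1331 in R1003Q, and 1469 and 1200 in WT. The MIR203B strands together had 63.8 and 56.2 CPM on that scale in R1855L, 102 and 98.6 in R821H, 101 and 117 in R1003Q, and 144 and 137 in WT. Both R1855L libraries were the lowest of the 8 for each hairpin. How often the sums of other hairpins separated like this was not counted. Most WT reads of both hairpins were 3p reads, so these sums largely repeat the 3p values.

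**Figure D3:**
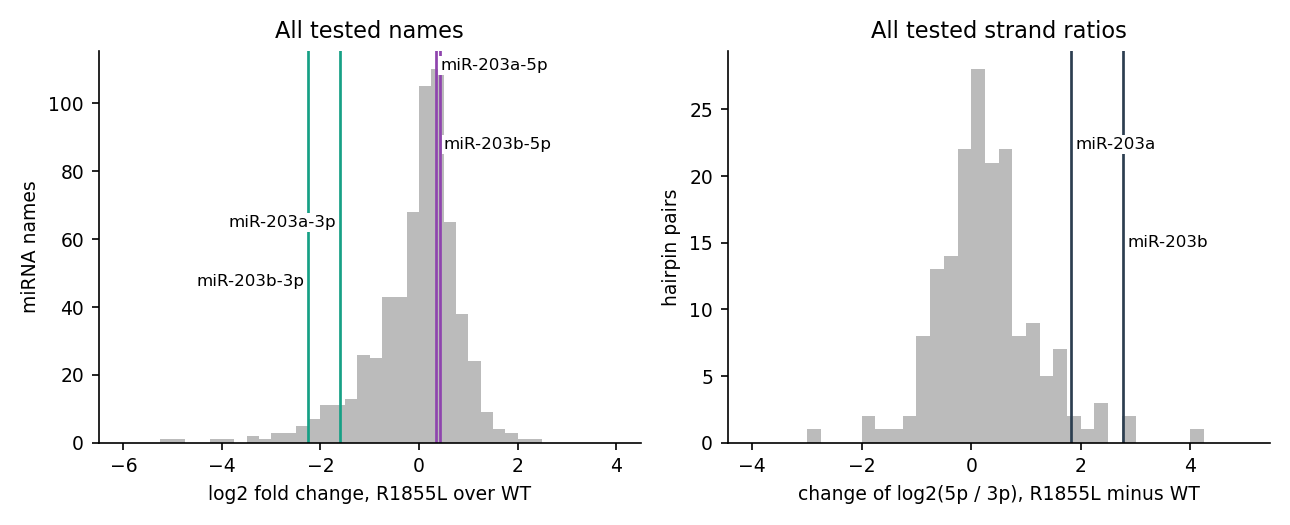
Left, histogram of the log2 fold change of R1855L over WT for 625 names, with the 4 strands of the locus marked (3p green, 5p purple). Right, histogram of the change of log2(5p/3p) for 174 hairpin pairs. The pair with the highest change, at 5.03, lies beyond the last bin and is not drawn. Both miR-203 hairpins are marked, miR-203b at 2.77 and miR-203a at 1.82.

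The balance of the strands within a hairpin does not depend on library scaling. In MIR203B the 5p strand made up 63.6% of the reads in R1855L replicate 1 (exact Clopper-Pearson 95% interval 55.2 to 71.5) and 57.7% in replicate 2 (36.9 to 76.6). It made up 28.7% (23.9 to 33.8) and 15.7% (8.61 to 25.3) in R821H, 20.0% (13.1 to 28.5) and 13.9% (7.16 to 23.5) in R1003Q, and 12.8% (8.10 to 18.9) and 25.0% (21.6 to 28.8) in WT. The 5p strand held most MIR203B reads in both R1855L libraries, though at the depth of replicate 2 the interval also covers an even split, and the 3p strand held most in the other 6. Intervals cover counting error only.

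In MIR203A the 5p strand made up 45.6% (42.9 to 48.3) and 19.9% (15.2 to 25.1) of the reads in R1855L, 16.7% (15.6 to 18.0) and 8.50% (6.95 to 10.3) in R821H, 11.7% (9.98 to 13.6) and 9.56% (7.71 to 11.7) in R1003Q, and 8.14% (6.87 to 9.55) and 15.9% (14.9 to 17.0) in WT. Both R1855L values were above all others, but the interval of R1855L replicate 2 reached those of WT replicate 2 and R821H replicate 1. In R1855L, R821H and WT the deep library had the higher 5p share of its group for both hairpins.

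**Figure D4:**
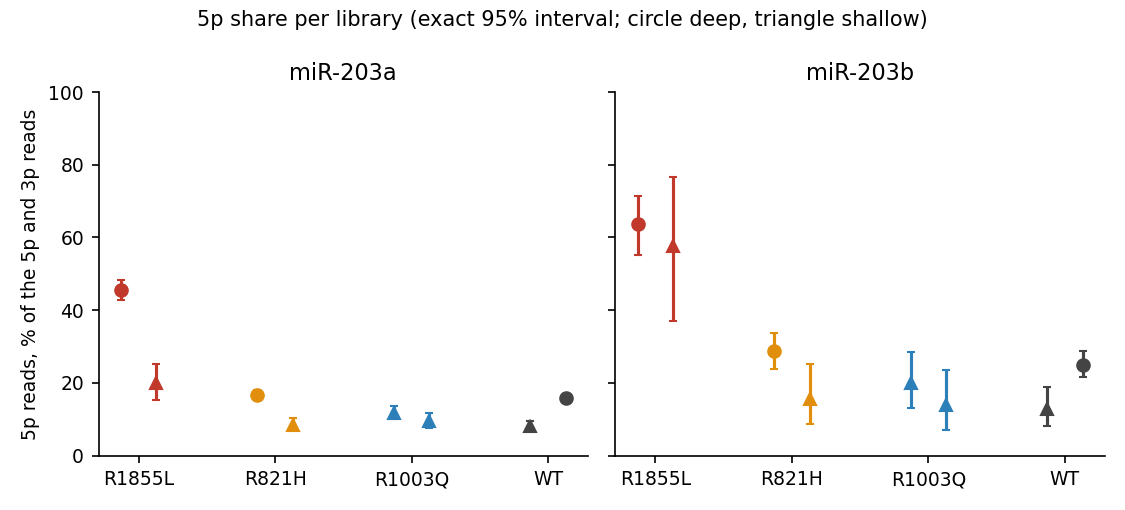
Share of 5p reads among the 5p and 3p reads of miR-203a (left) and miR-203b (right), in percent, per library in R1855L, R821H, R1003Q and WT, with exact 95% intervals (circle deep, triangle shallow). For miR-203b the R1855L libraries stand at 63.6% and 57.7%, and no other library exceeds 28.7%.

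As a log2 ratio of 5p over 3p reads, with 0.5 added to each, miR-203b had 0.62 ± 0.26 in R1855L and -2.16 ± 0.82 in WT (SD, n = 2 each), a change of 2.77 (SE 0.58). miR-203a had -1.13 ± 1.24 in R1855L and -2.94 ± 0.77 in WT, a change of 1.82 (SE 0.63). limma called the change of miR-203b and not that of miR-203a, against 5.75% of 174 hairpin pairs called toward 5p, and 32.2% of the pairs had both R1855L libraries above both WT libraries, as these hairpins did. The median change over all pairs was 0.23, and 2 pairs had a higher change than miR-203b and 9 a higher one than miR-203a. In the deep libraries alone miR-203b changed by 2.38 and miR-203a by 2.14, and in the shallow ones by 3.17 and 1.49. The call of miR-203b was lost without WT replicate 1 (2.19), without R1855L replicate 1 (2.59) and in a fit to only the 4 libraries (2.77). That of miR-203a was gained without R1855L replicate 2 (2.69) and with depth class in the model (1.82, SE 0.31), while the change came to 0.94 without R1855L replicate 1 and to 1.27 without WT replicate 1, neither called.

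The strands of the locus were also set against each other within a library. There were 7.11 and 5.14 reads of miR-203b-3p per 100 reads of miR-203a-3p in R1855L, 7.58 and 6.64 in R821H, 8.36 and 8.35 in R1003Q, and 9.32 and 10.2 in WT. WT was highest without overlap, and R1855L overlapped no group but R821H. The log2 ratio of these strands differed from WT by -0.66 in R1855L, -0.46 in R821H and -0.22 in R1003Q, with group SDs of 0.30, 0.13, 0.000582 and, in WT, 0.092. miR-203b-5p, the antisense partner of miR-203a-3p, had 12.4 and 7.01 reads per 100 in R1855L, 3.04 and 1.23 in R821H, 2.09 and 1.35 in R1003Q, and 1.37 and 3.41 in WT. R1855L was highest here without overlap, though the CPM of miR-203b-5p itself overlapped between R1855L and WT. For neither ratio was it counted how often other names separated the groups like this. The share of MIR203B among all reads of the locus overlapped between R1855L and WT, with 9.62% and 8.87% in R1855L, 8.13% and 6.72% in R821H, 8.45% and 8.07% in R1003Q, and 8.94% and 10.3% in WT.

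R821H and R1003Q differed less from WT than R1855L did in the 3p strands, and none of the 3 names was called in either. For R821H the log2 fold change over WT was -0.42 (SE 0.25) for miR-203b-3p, 0.04 (SE 0.22) for miR-203a-3p and -0.13 (SE 0.53) for miR-203b-5p. For R1003Q it was -0.32 (SE 0.25), -0.10 (SE 0.22) and -0.60 (SE 0.56) for the same names. edgeR called 0 of 625 names in either comparison (0%), with 20 and 31 names at an unadjusted p under 0.05, and by DESeq2 the counts were 1 and 0. Both libraries below both WT libraries, as seen for miR-203b-3p, occurred in 13.1% of names in R821H and in 17.8% in R1003Q. The miR-203b strand ratio changed by 0.31 (SE 0.58) in R821H and by -0.12 (SE 0.58) in R1003Q, and that of miR-203a by 0.08 (SE 0.63) and -0.13 (SE 0.63). limma called 0 of 174 pairs in either mutant (0%), with 3 and 8 at an unadjusted p under 0.05.

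Set against R1855L, the other mutants had higher 3p strands. The log2 fold change of R821H over R1855L was 1.83 (SE 0.27) for miR-203b-3p and 1.64 (SE 0.22) for miR-203a-3p, and that of R1003Q over R1855L was 1.93 (SE 0.28) and 1.51 (SE 0.22). edgeR called these 2 names higher in each comparison, against 3.52% and 3.68% of all names. Calls in both directions numbered 24 and 23, and these counts were 114 and 93 with depth class and 4 and 4 without R1855L replicate 1. In R821H over R1855L there were 2 calls without R821H replicate 2, and in R1003Q over R1855L there were 2 without R1003Q replicate 1 and 6 without its replicate 2. For miR-203b-5p, R821H over R1855L gave -0.55 (SE 0.54) and R1003Q over R1855L gave -1.02 (SE 0.57), neither called. Leaving out 1 library moved the R821H value between -1.26 (without R821H replicate 1) and -0.11 (without R1855L replicate 1), with -0.16 without R821H replicate 2. The R1003Q value came to -0.59 without R1855L replicate 1 and to -0.32 with depth class. Relative to R1855L the miR-203b strand ratio changed by -2.46 (SE 0.58) in R821H and by -2.89 (SE 0.58) in R1003Q, both called, against 5.17% of pairs called toward 3p in each comparison. Both 3p calls of each comparison were lost without R1855L replicate 1 and in the 4 libraries alone, those in R821H also without R821H replicate 2 (1.54 for miR-203a-3p and 1.83 for miR-203b-3p), and those in R1003Q also without either R1003Q library (1.62 and 1.39 for miR-203a-3p, 2.05 and 1.81 for miR-203b-3p). Total-count scaling ended the miR-203a-3p call in both (1.496 and 1.463). The call of the strand ratio was lost in R821H without any 1 of its 4 libraries (-3.001 to -1.928), in R1003Q without R1855L replicate 1 (-2.71) or either R1003Q library (-3.19 and -2.59), in R821H also in the 4 libraries alone (-2.46), and in both with the replicate block. Between R1003Q and R821H the 3 names had log2 fold changes from -0.48 to 0.10, and 0 of 625 names were called (0%), with 10 at an unadjusted p under 0.05 by edgeR and 0 called by DESeq2. These comparisons reuse the R1855L libraries.

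The miRNAs whose levels ran most like the 3p strands across the 8 libraries were other names low in R1855L. By Pearson's r of log2 CPM among 338 names of at least 50 CPM, miR-203a-3p was nearest to miR-484 (0.988), miR-23b-3p (0.987), miR-151a-3p (0.984), miR-877-5p (0.982) and miR-27b-3p (0.981). miR-203b-3p was nearest to miR-23b-3p (0.988), miR-27b-3p (0.981), miR-877-5p (0.977), miR-331-3p (0.977) and miR-25-3p (0.974). All of these had a negative log2 fold change in R1855L, from -5.11 for miR-484 to -1.06 for miR-877-5p. miR-203b-5p was nearest to other names, miR-135b-5p (0.964), miR-9-3p (0.957), miR-20a-3p (0.953), miR-335-5p (0.947) and miR-34a-3p (0.944), whose values in R1855L lay between 0.05 and 0.47. Between the strands of the locus r was 0.969 for the 3p strands, 0.830 for the 5p strands, -0.252 for miR-203a-5p with miR-203a-3p, and -0.457 for miR-203b-5p with miR-203b-3p. The points share library depth and the 4 groups, so these values describe and test nothing.

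Other epithelial miRNAs were read as lists beside miR-203. The lists were chosen with earlier results of these data known, so their counts of calls are a description. Of 6 miRNAs whose genes ZEB1 represses, as it does that of miR-203a, all were tested, and edgeR called 2 lower in R1855L, against 5.44% of all names, and 0 higher, against 0.32%. The median log2 fold change of the list was 0.03, against 0.13 over all names. miR-200a-3p had -0.13 (SE 0.23), miR-200b-3p 0.18 (SE 0.29) and miR-200c-3p 0.25 (SE 0.51), none of them called. miR-429 had -1.04 (SE 0.21, edgeR adjusted p = 0.0306) and miR-141-3p had -1.39 (SE 0.30, edgeR adjusted p = 0.0422), and neither was called with total-count scaling (-1.01 and -1.43), in the 4 libraries alone (-1.04 and -1.39), with the replicate block or without any 1 of the 4 libraries. miR-183-5p, the highest of the list in WT, had 1.01 (SE 0.45), not called, and was called higher with depth class in the model (0.91, SE 0.18). Of 7 miRNAs studied in epidermis 4 were tested and none was called in R1855L, with a median of -0.15; the highest in WT, miR-31-5p, had -0.18 (SE 0.26). With depth class miR-34a-5p was called lower and miR-125b-5p higher. These calls and that of miR-183-5p stand beside 177 of 625 names called in R1855L against WT in that fit. In R821H and R1003Q no member of either list was called, with medians of 0.03 and -0.21 for the first list and 0.15 and 0.17 for the other.

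Markers of colon epithelium, the tissue of origin of the line, and of other cell types were read beside these results. Of 5 miRNAs of colon epithelium 4 were tested, while miR-215-5p, the name not tested, had 5 reads in each WT library. All 5 together summed to 333 and 379 CPM (without TMM scaling) in R1855L, 364 and 345 in R821H, 402 and 388 in R1003Q, and 406 and 378 in WT. Of the 4 tested, miR-141-3p, also on the ZEB1 list, was called lower in R1855L against WT, against 5.44% of all names. The others were not called, with log2 fold changes of -0.02 (SE 0.27) for miR-192-5p, -0.18 (SE 0.26) for miR-194-5p and 0.25 (SE 0.51) for miR-200c-3p. miR-205-5p, a marker of squamous epithelium, in which miR-203a-3p is abundant, stayed between 1.75 and 5.94 CPM. The 6 blood miRNAs summed to 667 and 933 CPM in R1855L, 611 and 563 in R821H, 564 and 574 in R1003Q, and 754 and 559 in WT. With TMM scaling, the WT means were 351 CPM for miR-142-3p, 202 for miR-451a and 74.2 for miR-486-5p. In the WT libraries miR-223-3p had 6 and 9 reads, miR-150-5p had 7 and 10, and miR-155-5p had none. Without TMM scaling, the 3 miRNAs of fibroblasts and smooth muscle summed to 637 and 964 CPM in R1855L, 661 and 628 in R821H, 645 and 731 in R1003Q, and 756 and 650 in WT. R1855L replicate 2 was highest for both lists, and without it miR-203a-3p had -1.69 and miR-203b-3p -2.14 against WT.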

How the data were processed

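Mature miRNA reads were counted in 8 AQ-seq libraries of HCT116 cells (R1855L, R821H, R1003Q and WT, 2 each), grouped by sample title. Per the submitters' processing notes, hg38 and mm10 were the genome builds, and the tools were bedtools, BWA and cutadapt. Their versions and roles, the miRNA annotation and the strand handling are not given in sources used here. The deposited tables hold estimated counts per name, not normalised, listed from 1 read upward, and an absent name was set to 0. A count of 0 allows 3 reads, from 0.703 to 6.48 CPM.

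Rounded counts entered edgeR 4.0.16 under R 4.3.3 (filterByExpr, TMM, 1 robust quasi-likelihood fit to all 8 libraries, Benjamini-Hochberg adjustment over 625 names, called under 0.05), on names holding at least 99.8% of reads. SE is the absolute log2 fold change over the square root of F. Strand ratios used limma 3.58.1 on 174 pairs with at least 80 reads per strand. Both fits were run on simulated data that held no depth effect and gave all ratios the same added spread. That check therefore does not cover the depth differences seen here. Deep and shallow libraries were split at the widest gap of log totals. Same-numbered libraries deviated from their group means with correlations between -0.701 and 0.569 across groups, so the numbers were not taken as pairs.

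Members, lists, tests and the rule for named miRNAs were chosen with earlier results of these data known. The rule took the 3 members, miR-203a-5p, seed sharers, list members called or highest in WT, and the 5 most correlated names per member. Further members of the ZEB1 list and of the marker lists were named beyond the rule. The miR-203a strand ratio was added after seeing the data. Alternatives were DESeq2 1.42.0, median-ratio factors, total counts, no filter, 4 libraries, the replicate block, depth class, other pseudocount (5) and read minimum (400), and each library left out.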

Additional observations from a re-analysis of the deposited data

How the results depend on the processing

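Under every alternative run, miR-203a-3p and miR-203b-3p stayed lower in R1855L than in WT and the miR-203b strand ratio stayed shifted toward its 5p strand. Fitting the 4 libraries of the comparison alone ended all 3 calls, at -1.60, -2.26 and 2.77. Calls over all names in R1855L, 36 in the fit reported, numbered 14 with total counts, 2 in those 4 libraries, 19 with the replicate block and 177 with depth class. R821H had 1 call by DESeq2 and 16 with depth class, and R1003Q had 2 with depth class. Same-numbered libraries deviated against each other for R1855L and R821H with WT. Crossing the numbers, an alternative added after seeing the data, gave 182 and 30 calls there, and 5 for R1003Q with R821H. For R1855L and R821H with WT, the crossed numbers paired deep with deep and shallow with shallow libraries. Crossing and depth class were thus the same split of those libraries. The replicate block changed no call of a member, and it ended that of the miR-203b ratio in R821H and R1003Q over R1855L and those of miR-429 and miR-141-3p in R1855L.

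Signs turned only for differences that were not called. In R821H against WT miR-203a-3p was at -0.0893 with total counts and -0.0527 without a filter. In R1003Q against WT depth class gave 0.0616 for miR-203b-5p, 0.32 for the miR-203b ratio and 0.53 for the miR-203a ratio, and a pseudocount of 5 gave 0.0382 for the miR-203b ratio. In R1003Q against R821H depth class gave 0.21, 0.0065 and 0.45 for the same 3 quantities. With that pseudocount the log2 ratio of miR-203b-3p to miR-203a-3p differed from WT by -0.40 in R1855L, -0.43 in R821H and -0.17 in R1003Q. R1855L thus no longer had the largest difference.

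Leaving out each library of a comparison in turn gave 8 (without R1855L replicate 1) to 26 calls in R1855L against WT, with 17 and 21 without WT replicates 1 and 2. There the ranges were -1.71 to -1.54 for miR-203a-3p, -0.0187 to 1.15 for miR-203b-5p, 2.19 to 3.35 for the miR-203b ratio and 0.94 to 2.69 for the miR-203a ratio. Calls over R1855L ranged over 2 to 21 in R821H and 2 to 16 in R1003Q, with 24 and 23 reported. By DESeq2 they numbered 39 and 40, with total counts 8 and 11, without a filter 40 and 32, in the 4 libraries 6 and 10, and with the replicate block 15 and 13. In R821H against WT miR-203a-3p ranged over -0.0871 to 0.14, miR-203b-5p over -0.84 to 0.57, and the ratios of miR-203b and miR-203a over -0.27 to 0.89 and -0.48 to 0.63. In R1003Q against WT miR-203a-3p ranged over -0.22 to 0.0177, miR-203b-5p over -1.05 to 0.12, and those ratios over -0.70 to 0.46 and -0.67 to 0.42. In R1003Q against R821H miR-203b-5p ranged over -0.87 to 0.24, miR-203b-3p over -0.0181 to 0.21, and the ratios over -0.96 to 0.11 and -0.76 to 0.35. The causes of these changes were not tested. The lone library left in a group was assumed to vary like the other groups. The shallowest R1855L library gave 11 reads of miR-203b-3p, which limits the precision of every ratio that uses it.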
